A study of Mus musculus with 6 samples.

Results

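The genes described here are 10 members of the bone morphogenetic protein (BMP) pathway, measured on whole-transcript arrays of CCR6+ group 3 innate lymphoid cells (ILC3s) from mouse small intestine. They are the ligand genes Bmp2, Bmp4 and Bmp7, the receptor genes Bmpr1a and Bmpr2, the signal transducers Smad1 and Smad5, the inhibitory Smad6 and the target genes Id1 and Id3. All 10 were measured, each by 1 probe set that the platform annotation assigns to that gene alone, among 19938 genes tested. The list was built around Bmp2, which was selected on its difference between these same RANKL-deficient and control arrays, so the values of the members are given as a description, without p-values. Of the 6 arrays, 3 came from adult Tnfsf11fl/fl mice with a Cre transgene, called RANKL-deficient here, and 3 from adult Tnfsf11fl/fl mice, called control. Both groups are on the C57BL/6 background and both carry floxed alleles of Tnfsf11, the gene of the TNF family cytokine RANKL. The control labels name no Cre, so the Cre transgene and the deletion cannot be told apart. The labels do not say whether the arrays of a group came from separate or pooled mice, and any p-value therefore measures the spread between these arrays, which may be technical. The comparison asks which transcripts of the sorted cells differ when ILC3s lack RANKL.

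BMPs are secreted dimers of the TGF-beta superfamily. They bind a complex of type I and type II serine/threonine kinase receptors, which phosphorylates SMAD1, SMAD5 and SMAD9. These join SMAD4, enter the nucleus and switch on targets such as the Id genes, whose products block basic helix-loop-helix transcription factors, and Smad6, whose product feeds back on the receptors. In the intestine, BMP ligands from cells beneath the epithelium favour differentiation over stem cell renewal along the crypt axis, and antagonists such as noggin and gremlin keep them away from the crypt base.

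Promoter sequence was available from RefSeq (GRCm38.p6) for 7 of the 10 members. The stretches below are the 250 bases before the annotated start of Bmp4 and Id3, the members other than Bmp2 whose arrays did not overlap between the groups, and of Smad6, a textbook target of the pathway. They lie at chr14:46390670-46390919 (minus strand) for Bmp4, at chr4:136143572-136143821 (plus strand) for Id3 and at chr9:64022060-64022309 (minus strand) for Smad6. Capitals mark GGAGCC or its reverse complement GGCTCC, letters known from BMP-responsive promoters.
Bmp4: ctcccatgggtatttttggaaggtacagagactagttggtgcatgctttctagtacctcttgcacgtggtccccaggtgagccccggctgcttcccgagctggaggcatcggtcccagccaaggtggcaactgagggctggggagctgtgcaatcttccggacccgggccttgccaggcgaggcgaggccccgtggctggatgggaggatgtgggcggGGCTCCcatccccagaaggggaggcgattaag
Id3: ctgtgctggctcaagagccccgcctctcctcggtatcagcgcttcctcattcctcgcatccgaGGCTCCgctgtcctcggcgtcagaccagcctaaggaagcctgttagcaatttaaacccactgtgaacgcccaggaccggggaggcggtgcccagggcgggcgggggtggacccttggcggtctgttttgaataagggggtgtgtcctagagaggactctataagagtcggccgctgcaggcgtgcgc
Smad6: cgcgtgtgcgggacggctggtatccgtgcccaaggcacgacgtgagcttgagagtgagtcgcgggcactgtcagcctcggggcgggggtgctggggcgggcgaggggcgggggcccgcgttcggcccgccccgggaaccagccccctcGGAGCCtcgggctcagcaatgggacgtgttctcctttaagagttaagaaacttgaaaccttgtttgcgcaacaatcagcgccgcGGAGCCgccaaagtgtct
Searched on both strands, GGAGCC lay 32 bases before the start of Bmp4, 187 before that of Id3, and 102 and 18 before that of Smad6. It was present in 4 of the 7 members, and in 26.0% of all 32851 windows of the same length. The 7 members had 9 windows, and a member was counted if any of its windows matched. For each motif, the count of members and the share of windows are therefore not like measures. The palindrome GGCGCC, also bound by SMADs, was absent from these windows of Bmp4, Id3 and Smad6 and present in those of Bmpr1a, Bmpr2 and, at 1 of its annotated starts, Smad5, against 9.59% of all windows. The palindromic SMAD box GTCTAGAC was found in 0 of the 7 members and in 0.167% of all windows. The 3 motifs were searched separately, no marked matches overlapped, and a match of letters is not a binding site.

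Bmp2 was the member that differed most. It encodes a secreted ligand best known for inducing bone and, in the gut, for signalling between muscularis macrophages and enteric neurons. Its log2 value was 6.16, 6.46 and 6.60 on the RANKL-deficient arrays, against 7.82, 8.96 and 8.94 on the control arrays. All RANKL-deficient arrays lay below all control arrays, with a gap of 1.22 between the closest arrays, and the control arrays were the more scattered. The means were 6.40 ± 0.22 in RANKL-deficient and 8.57 ± 0.66 in control cells (SD, n = 3 each), a log2 difference of −2.17 (SE 0.32, 95% confidence interval −2.92 to −1.41), or 4.49-fold lower. Of all 19938 genes, it had the lowest difference in this fit, and it ranked from 2 to 9 from the lowest in the 7 settings that left arrays out. In a sorted population measured in bulk, fewer Bmp2-expressing cells and less Bmp2 RNA per cell cannot be told apart. Without control array 1 the difference was −2.55, and without control arrays 1 and 2, which leaves control array 3 alone in its group, it was −2.54.

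Bmp4, the closest relative of Bmp2 among the ligands, differed in the opposite direction. Its log2 value was 6.63, 7.18 and 6.77 on the RANKL-deficient arrays, against 5.47, 5.97 and 6.44 on the control arrays. All RANKL-deficient arrays lay above all control arrays, although only 0.19 separated the closest arrays and the control arrays spanned a wider range. The means were 6.86 ± 0.28 in RANKL-deficient and 5.96 ± 0.49 in control cells (SD, n = 3 each), a log2 difference of 0.90 (SE 0.27, 95% confidence interval 0.27 to 1.53), or 1.87-fold higher. A difference at least as high was found in 276 genes. Leaving out control array 1 gave 0.66 and leaving out control array 3 gave 1.14, the extremes of the 6 fits with 1 array fewer. It was 0.42 without control arrays 1 and 2, when control array 3 alone stood for its group.

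Bmp7, a ligand known from kidney and skeletal development, differed little. It measured 4.07, 4.17 and 4.21 on the RANKL-deficient arrays, against 4.31, 4.27 and 4.09 on the control arrays, and the groups overlapped. The difference was −0.07 (95% confidence interval −0.37 to 0.22).

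**Figure D1:**
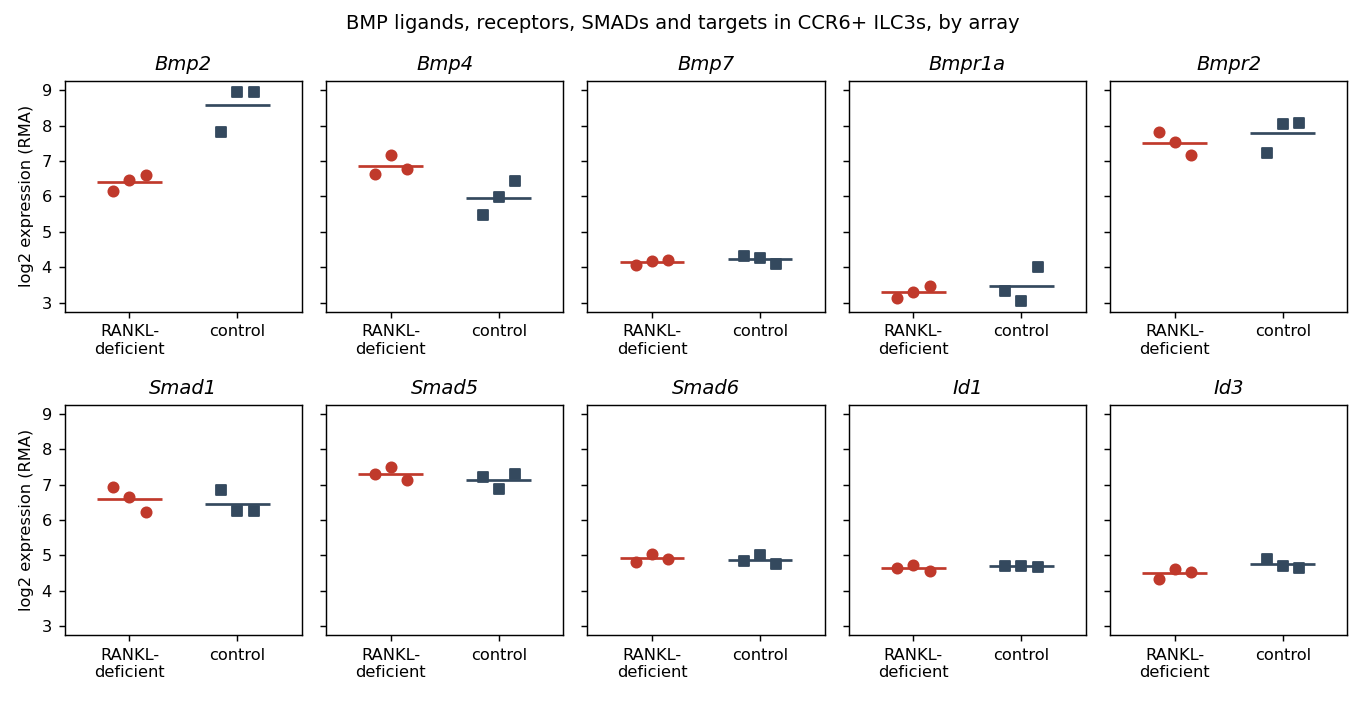
Log2 expression (RMA) of the 10 BMP genes on each array, with 3 RANKL-deficient arrays (red circles) left of 3 control arrays (dark squares) in each panel and horizontal lines at the group means. The RANKL-deficient arrays lie below the control arrays by at least 1.22 for Bmp2 and above them by at least 0.19 for Bmp4, while the other panels show small or no separation.

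The receptor genes overlapped between the groups. Bmpr2, the type II receptor that binds BMPs with high selectivity, had log2 values of 7.82, 7.53 and 7.17 on the RANKL-deficient arrays, against 7.23, 8.05 and 8.08 on the control arrays. Control array 1 lay among the RANKL-deficient arrays and the other two control arrays lay above them all. The difference was −0.28 (95% confidence interval −0.92 to 0.37), and leaving out control array 1 gave −0.56, whereas leaving out RANKL-deficient array 3 gave −0.11. Bmpr1a, the main type I receptor for BMP2 and BMP4, had log2 values of 3.14, 3.29 and 3.46 on the RANKL-deficient arrays, against 3.34, 3.04 and 4.01 on the control arrays. Control array 3 alone stood above the rest. The Bmpr1a difference of −0.17 (95% confidence interval −0.76 to 0.43) turned to 0.11 without control array 3 and was −0.72 without control arrays 1 and 2, when control array 3 alone stood for its group.

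The SMAD genes overlapped as well. Smad1, which carries the signal to the nucleus, had log2 values of 6.92, 6.66 and 6.23 on the RANKL-deficient arrays, against 6.86, 6.26 and 6.25 on the control arrays. Each group held low and high arrays, and the difference was 0.15 (95% confidence interval −0.42 to 0.72). Without RANKL-deficient array 1 it was −0.01. Smad5, its close partner, had log2 values of 7.29, 7.50 and 7.14 on the RANKL-deficient arrays, against 7.21, 6.89 and 7.31 on the control arrays, a difference of 0.18 (95% confidence interval −0.21 to 0.56). The groups overlapped between 7.14 and 7.31, and the difference was 0.002 without control arrays 1 and 2. Smad6, the inhibitor that BMP signals induce, had log2 values of 4.81, 5.04 and 4.90 on the RANKL-deficient arrays, against 4.84, 5.0 and 4.75 on the control arrays. The ranges nearly coincided, with a difference of 0.05 (95% confidence interval −0.26 to 0.36).

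The Id targets showed small differences. Id1, among the most direct BMP targets known, had log2 values of 4.65, 4.72 and 4.57 on the RANKL-deficient arrays, against 4.70, 4.71 and 4.68 on the control arrays. The control arrays sat inside the range of the RANKL-deficient arrays, with a difference of −0.05 (95% confidence interval −0.32 to 0.22). Id3, a related inhibitor active in lymphocyte development, had log2 values of 4.35, 4.63 and 4.54 on the RANKL-deficient arrays, against 4.89, 4.71 and 4.65 on the control arrays. All RANKL-deficient arrays lay below all control arrays, but the closest were only 0.02 apart and overlapped after any of 3 other scalings. The Id3 difference was −0.24 (95% confidence interval −0.57 to 0.08).

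Across the 10 members, 4 had higher and 6 had lower values in RANKL-deficient cells, with a median log2 difference of −0.06, against −0.05 over all genes tested. Of all 19938 genes, 7879 had higher and 12054 lower values. After quantile normalization or cyclic loess, 6 members were higher and 4 lower, since the small differences of Bmp7 and Id1 changed sign. The arrays of the groups did not overlap for 3 members, 1 higher (Bmp4) and 2 lower (Bmp2 and Id3), where the groups did not overlap for 14.4% of all genes. Of all genes, 5.28% had every RANKL-deficient array above and 9.08% every RANKL-deficient array below the control arrays. Because the list was drawn up from this contrast, these counts and the unadjusted confidence intervals of the members are descriptions only. For Bmp7, Bmpr1a, Smad6, Id1 and Id3, the mean over the 6 arrays lay below 5.12, the median over genes. No detection call or background level was used here, so for these 5 a difference could be understated, and overlap between groups does not show that the genes were expressed alike.

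**Figure D2:**
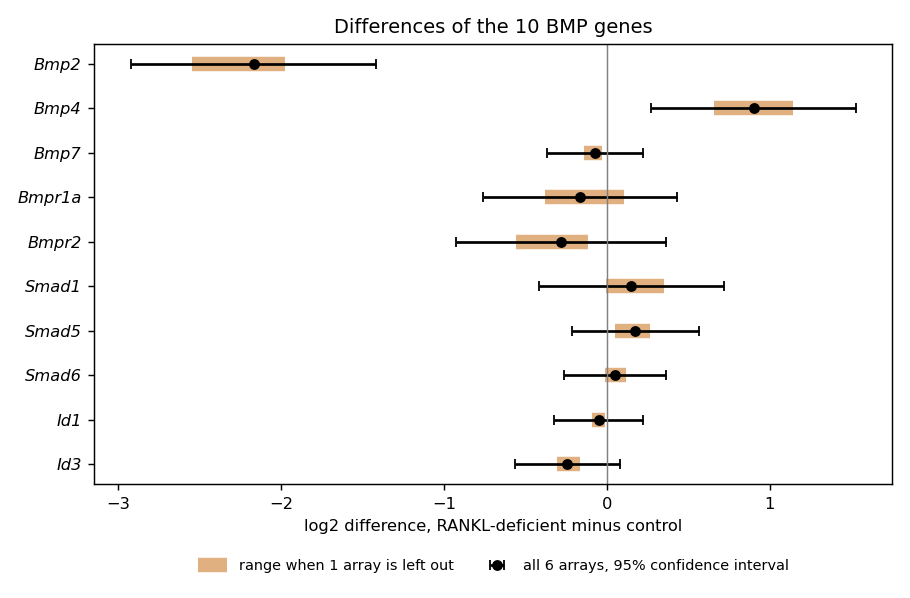
Log2 difference of each BMP gene, RANKL-deficient minus control, with points for all 6 arrays, black bars for the 95% confidence interval of limma and wide tan bars for the range of the difference when 1 array was left out. Bmp2 ranges from −2.55 to −1.97 and Bmp4 from 0.66 to 1.14 with 1 array left out. The list was built around Bmp2 from this same contrast, so the unadjusted intervals are descriptions and not tests.

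The rest of the pathway was read from 64 further genes, of which 62 were measured. None passed an adjusted p of 0.05 in either direction, a threshold that 0.00502% of all genes passed, and the lowest adjusted p was 0.517 (limma, Benjamini-Hochberg over all genes). At an unadjusted p under 0.05 there were 0 higher and 6 lower, against 4.25% and 3.9% of all genes. Values were higher in RANKL-deficient cells for 18 genes and lower for 44, with a median difference of −0.11. The median difference was −0.05 over all genes, −0.10 over genes with a mean below the median of all genes and 0.03 over those above it, and 30 of the 62 belonged to the dimmer set. Of all 19938 genes, 7879 had higher and 12054 lower values. In the dimmer set of 9969 genes these counts were 2426 and 7540, and in the brighter set 5453 and 4514. The groups did not overlap for 1 gene in the higher direction and 11 in the lower, where 5.28% of all genes had every RANKL-deficient array above and 9.08% every one below the control arrays. In the dimmer set of 9969 genes, 143 lay wholly above and 1202 wholly below. After cyclic loess, 5 pathway genes were higher and 7 lower without overlap, and with arrays centred on their medians 3 were higher and 5 lower. Shares over all genes are given on the deposited scale only, so the counts after other scalings cannot be set against them.

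All 11 other ligand genes had slightly lower values, from −0.26 to −0.03, although 3 were higher and 8 lower after cyclic loess. Of these 11, 8 had a mean below the median of all genes. In that dimmer set, 2426 genes had higher and 7540 lower values. None of the 11 ligand genes had an unadjusted p under 0.05. Bmp8a, a ligand of germ cells, had the smallest p of them, with a difference of −0.26 (limma adjusted p = 0.675). It was followed by Bmp5 at −0.22 (−0.05 without control arrays 1 and 2) and Gdf5, a joint-forming ligand, at −0.18. The arrays of both groups overlapped for all 3.

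Among the 10 other receptors and co-receptors, 3 had higher and 7 lower values. Tgfbr3, the co-receptor betaglycan, averaged 5.08 ± 0.20 in RANKL-deficient and 5.70 ± 0.37 in control cells (SD, n = 3 each), a difference of −0.61 (limma adjusted p = 0.576). Acvrl1, the type I receptor ALK1 of endothelium, differed by −0.37 and Rgma, a glycolipid-anchored BMP co-receptor, by −0.31. In all 3 every RANKL-deficient array lay below every control array, with gaps of 0.11 to 0.15 between the closest arrays. Without control arrays 1 and 2 the Tgfbr3 difference was −0.35. The other type I receptors showed smaller differences, 0.23 for Acvr1 and −0.11 for Bmpr1b. The type II receptors that BMPs share with activins gave 0.33 for Acvr2a and −0.11 for Acvr2b, and the groups overlapped in each of these 4.

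Of 18 measured extracellular antagonists and modulators, 7 had higher and 11 lower values. Fstl1, a secreted glycoprotein that binds BMPs, averaged 4.40 ± 0.12 in RANKL-deficient and 5.02 ± 0.44 in control cells (SD, n = 3 each), a difference of −0.63 (limma adjusted p = 0.587), and its closest arrays nearly touched. The Fstl1 groups overlapped after each of 3 other scalings. Without control arrays 1 and 2 the Fstl1 difference was −0.97. Bambi, a decoy receptor lacking the kinase domain, differed by −0.46 with overlapping groups. Nog, which encodes the antagonist noggin, measured 4.82, 4.55 and 4.74 on the RANKL-deficient arrays, against 5.32, 4.98 and 4.82 on the control arrays. The closest Nog arrays were 0.01 apart, and the difference of −0.34 was −0.12 without control arrays 1 and 2. After each of 3 other scalings the Nog groups overlapped.

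Of 15 intracellular SMADs and regulators, 6 had higher and 9 lower values. Zeb2, a repressor that binds receptor-activated SMADs, measured 5.63, 5.78 and 6.18 on the RANKL-deficient arrays, against 6.21, 6.80 and 6.84 on the control arrays. All RANKL-deficient arrays lay below all control arrays, by 0.03 at the closest, and the difference of −0.75 (SE 0.23, limma adjusted p = 0.517) was −0.97 without control arrays 1 and 2. With arrays centred on their medians, the Zeb2 groups overlapped. Smurf2, a ubiquitin ligase that removes SMADs and receptors, differed by −0.59 with overlapping groups on the brighter of its 2 probe sets, by −0.30 on their mean, and by −0.11 without control arrays 1 and 2. Smad9, the third BMP-specific SMAD, differed by −0.18. Every RANKL-deficient array lay below every control array for Smad9, by 0.10 at the closest, and also after each of 3 other scalings. Smad4, the partner shared with TGF-beta, differed by −0.10 (95% confidence interval −0.65 to 0.45), with overlapping groups.

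Of 8 measured further targets, 2 had higher and 6 lower values (3 and 5 after cyclic loess). Msx1, a homeobox target of BMPs in limb and tooth, differed by −0.36 (limma adjusted p = 0.607), Msx2 by −0.25 and Atoh8 by −0.20, and only Msx1 had groups that did not overlap. Without control arrays 1 and 2 the Msx1 difference was −0.16. Id2, which every innate lymphoid lineage requires and which was named after its values were seen, measured 11.57, 11.63 and 11.62 on the RANKL-deficient arrays, against 11.29, 11.57 and 11.56 on the control arrays. Control array 1 was the low one, and the difference was 0.13 (95% confidence interval −0.18 to 0.44).

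**Figure D3:**
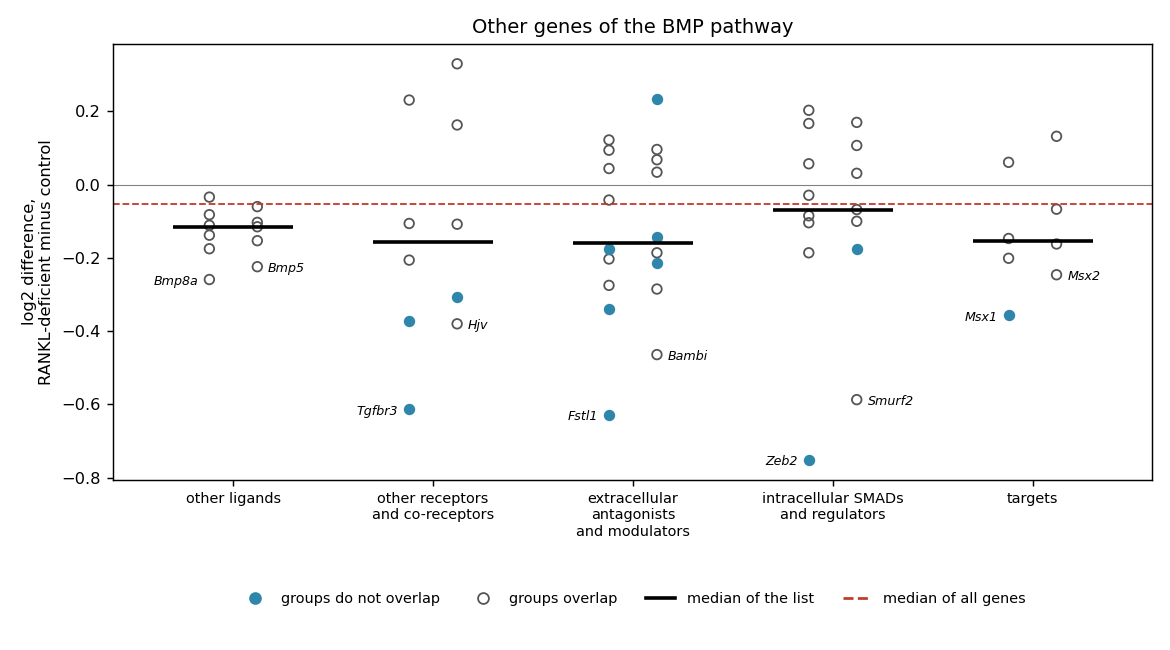
Log2 difference, RANKL-deficient minus control, of the 62 other BMP pathway genes in 5 lists, with 1 point per gene, filled where the arrays of the groups do not overlap. Black lines mark the list medians and the dashed line the median of all genes (−0.05). The list medians lie between −0.16 and −0.07, and Zeb2 has the lowest value at −0.75.

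Other genes were ranked by how closely their profile over the 6 arrays, each centred on the mean of its gene, matched that of Bmp2. The root mean square difference was smallest for Dscam (0.237), an immunoglobulin-family adhesion molecule of neurons, followed by Fyb (0.368), an adaptor that links antigen receptors to integrins. Next came Ndnf (0.435), a secreted neurotrophic factor, Nos2 (0.500), the inducible nitric oxide synthase, and Utf1 (0.512), a chromatin protein of stem cells. Dscam averaged 5.73 ± 0.23 in RANKL-deficient and 7.56 ± 0.57 in control cells, and Fyb 6.41 ± 0.18 in RANKL-deficient and 7.87 ± 0.56 in control cells (SD, n = 3 each). In Bmp2 and each of these 5 genes, control array 1 was the lowest of the control arrays. The 5 genes were picked for matching the Bmp2 profile, so this shared feature follows largely from the choice. The 6 points of each profile share the arrays and the contrast, so the likeness is a description.

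**Figure D4:**
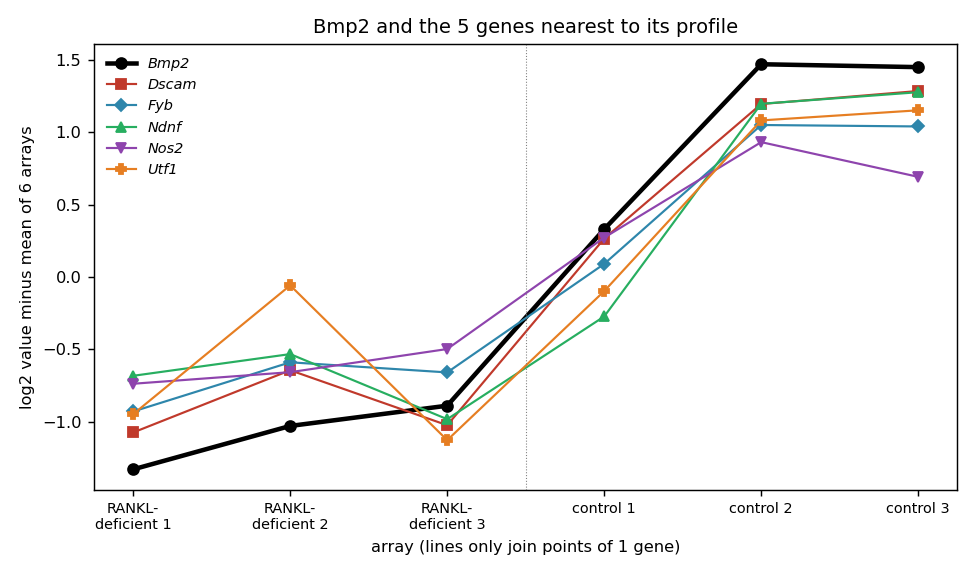
Log2 value minus the mean of the gene over 6 arrays, for Bmp2 (black) and the 5 genes nearest to its profile, with the 3 RANKL-deficient arrays left of the 3 control arrays. Dscam, the nearest, differs from Bmp2 by a root mean square of 0.237, and control array 1 lies lowest among the control arrays in all 6 genes. The 5 genes were picked for matching the Bmp2 profile, so this shared feature follows largely from the choice.

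The sorted cells carried the markers of their label. Of 8 measured ILC3 and lymphoid tissue inducer markers, Il7r ranged from 12.23 to 12.29 on the RANKL-deficient arrays and from 12.26 to 12.32 on the control arrays, and Ccr6 from 9.28 to 9.55 on the RANKL-deficient arrays and from 8.59 to 9.80 on the control arrays. Lists for 11 other cell types were measured beside Bmp2, and in 5 of them the mean log2 value over the list was lower on every RANKL-deficient array than on any control array. With arrays centred on their medians this held for 3 of the 5, and the fibroblast and B cell lists overlapped. For fibroblasts, 6 of 8 genes had lower values and the list mean spanned 5.39 to 5.47 in RANKL-deficient and 5.49 to 5.75 in control arrays. For endothelium, all 6 genes had lower values, with list means of 4.41 to 4.48 in RANKL-deficient and 4.65 to 4.74 in control arrays. Emcn, an endothelial sialomucin, had the lowest difference of these, −0.65. For NK cells and ILC1s, all 5 genes had lower values, with list means of 4.50 to 4.69 in RANKL-deficient and 4.74 to 5.21 in control arrays. Only 1 of the 5, Ncr1 at −0.925, had groups that did not overlap, with control arrays at 4.37, 5.57 and 4.15. For enteric glia and neurons, the 4 measured genes all had lower values, with list means of 4.16 to 4.33 in RANKL-deficient and 4.47 to 4.98 in control arrays. For B and plasma cells, 4 of 5 measured genes had lower values, with list means of 5.14 to 5.16 in RANKL-deficient and 5.21 to 5.38 in control arrays. The macrophage and monocyte list overlapped, with 3 of 7 measured genes higher and 4 lower. Its list means were 4.55 to 5.25 in RANKL-deficient and 5.01 to 5.24 in control arrays. No marker gene of the 73 measured passed the adjusted threshold, and array values have no true zero. All 11 lists had a negative median difference. The median was also −0.05 over all genes and −0.10 over genes with a mean below the median of all genes. Lower values were found in 12054 of all 19938 genes and in 7540 of the 9969 genes with such a mean. Of the 6 endothelial genes, 5 had such a mean. Of all genes, 9.08% had every RANKL-deficient array below the control arrays and 5.28% every one above. The lowest list median was −0.72 for smooth muscle, where all 5 genes had lower values. Its list means, 5.09 to 5.54 in RANKL-deficient and 5.54 to 6.78 in control arrays, met at the edge. The smooth muscle gene Myh11 differed by −0.72 with no overlap, and Cnn1 by −1.11, with control array 1 at 7.68 and the other two control arrays at 4.82 and 4.98. The T cell gene Cd3g differed by −1.91, the lowest of 6 T cell genes, of which 4 had lower and 2 higher values. Of the other CD3 chains, Cd3e differed by −0.70 and Cd3d by 0.26, and the T cell list means overlapped. The part of such cells in the Bmp2 and Bmp4 differences was not tested.

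The arrays had medians of 5.07 to 5.15 on the log2 scale. Control array 1 varied least across genes (SD 1.86, against 1.93 to 2.01 on the others), and its correlations across genes with the remaining arrays averaged 0.960, below control array 2 (0.970) and the rest (0.975 to 0.977).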

How the data were processed

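Each of the 6 arrays holds 35556 deposited log2 values, 1 per probe set. The submitters' processing notes name RMA and Affymetrix Expression Console. Versions and genome build: not given in the sources used here. Cells were sorted after collagenase digestion, and 2 ng of RNA was amplified, per the labels' protocols. RMA makes the distributions of arrays similar, so a shift of all genes could be hidden. The number of arrays limits the precision.

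Probe sets with 1 gene symbol (21789) were kept, symbols were updated through RefSeq identifiers, and the brightest probe set stood for each of 19938 genes. Groups and replicate numbers came from the titles. The two-sided test was limma 3.58.1 (R 4.3.3) with lmFit, eBayes and no replicate block, and Benjamini-Hochberg adjusted p-values under 0.05 over all genes were called. The fit was tested on simulated data. Members, gene lists and tests were chosen with earlier results of these data known. Named were all members, the 3 pathway genes of smallest p per list, all BMP receptors, Smad4, Smad9, Nog, and the 5 genes nearest in profile to Bmp2 and to Id1. There were 16 alternatives, covering normalization, filtering, probe sets, weights, eBayes options, a replicate block and arrays left out. Some planned genes are not reported here.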

Additional observations from a re-analysis of the deposited data

How the results depend on the processing

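Bmp2 was lower and Bmp4 higher in RANKL-deficient cells under all 16 alternatives, and 0 other pathway genes passed the adjusted threshold under any of them (limma). The Bmp2 difference ran from −2.55 to −1.97, and it was the lowest of all genes in the 8 settings that kept every array and tested genes, some of which leave the difference as it is. It ranked from 2 to 9 in the 7 settings that left arrays out, and 39 among 35556 when all probe sets were tested. Of the 10 members, 5 kept their sign throughout. The members' median was 0.15 among genes above the median only, where 5 members remained to be counted. The number of genes passing was 1 (0.00502% of all genes). That gene had higher values in RANKL-deficient cells and was not a BMP member. The number was 0 with all probe sets tested, 2 with trend and robust eBayes, and 0 to 1 without 1 array. In each of these settings, 0 of the 10 members passed. The labels do not say whether replicate numbers pair the arrays. Deviations of same-numbered arrays correlated at −0.023, 0.050 and 0.027, and 4 of 6 arrays correlated best with their own number, a hint from the data only. They were treated as unpaired, and with the replicate block 0 genes passed. Signs turned for Msx2 (0.008), Bmpr1b (0.158), Acvr2a (−0.077) and Acvr2b (0.032) without control arrays 1 and 2. With 1 array left out, Bmpr1b ran from −0.238 to 0.058 and Smad4 from −0.298 to 0.058. The cause was not tested. With 3 arrays a group and no background level, differences in dim genes such as Id1 are poorly bounded.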

Other observations

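The 5 genes nearest in profile to Id1 were Myom3, Olfr653, Tedc1, Fam170b and Mir181d, with root mean square differences of 0.018 to 0.024. The Id1 profile was nearly flat, and 9767 genes lay within 0.2 of it, against 0 genes for Bmp2. Fst, which encodes the activin and BMP binding protein follistatin and was named after its values were seen, was the 1 pathway gene outside the members with every RANKL-deficient array above every control array on the deposited scale, against 3 to 5 such genes after 3 other scalings. On the deposited scale, 5.28% of all genes had every RANKL-deficient array above the control arrays. Fst measured 4.79, 4.86 and 4.85 on the RANKL-deficient arrays, against 4.57, 4.53 and 4.70 on the control arrays.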
